A study of Mus musculus with 2 samples.

Results

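Among mouse liver immune cells profiled by droplet single-cell RNA sequencing, 268 of 10366 kept barcodes met the definition of a naive CD8 T cell used here, a share of 2.59% (exact Clopper-Pearson 95% interval 2.29 to 2.91%). The cells were chosen by their own measured counts of the genes named next, in unique molecular identifiers (UMI), which count captured transcripts rather than PCR copies. Each had at least 2 UMI of Cd3d, Cd3e and Cd3g together, at least 1 of Cd8b1, at least 1 of Lef1, at most 1 of Ccl5, none of Cd4, at most 1 of Ebf1 and Ms4a1 together and under 4 of Mki67 and Top2a together. The cells that met it, called members below, made up 10.5% (9.32 to 11.7%) of 2558 T cells gated on the Cd3 genes and 28.1% (25.3 to 31.1%) of the 954 Cd8b1-positive, Cd4-negative T cells among them.

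The labels name 2 samples of sorted liver cells from mice of the strain RedMUC298trTg at 8 weeks of age. The first is WT, which the labels describe as Rcrin flox, and the other is Rcrin KO, described as conditional in the liver. The matrix, gene and barcode files of both samples (3 of 3) were identical, and all 11192 barcodes were shared. The cells are therefore described as 1 sample of unknown genotype, no comparison of genotypes was made, and Rcrin itself was not analysed here. The promoter driving Cre and the number of mice pooled are not given in the sources used here. With 1 sample there are no replicates, no tests and no p-values, and all intervals cover counting error only. The comparisons below set gates of cells within that sample side by side.

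Naive CD8 T cells are recirculating lymphocytes that carry the CD8 coreceptor and have not yet met their antigen. They enter lymph nodes from the blood by means of CCR7 and adhesion receptors, leave again along sphingosine 1-phosphate, and depend on interleukin 7 for survival. Transcription factors such as LEF1 and TCF1 are part of that state, and their levels recede when the cells become cytotoxic effector or memory cells.

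**Figure D1:**
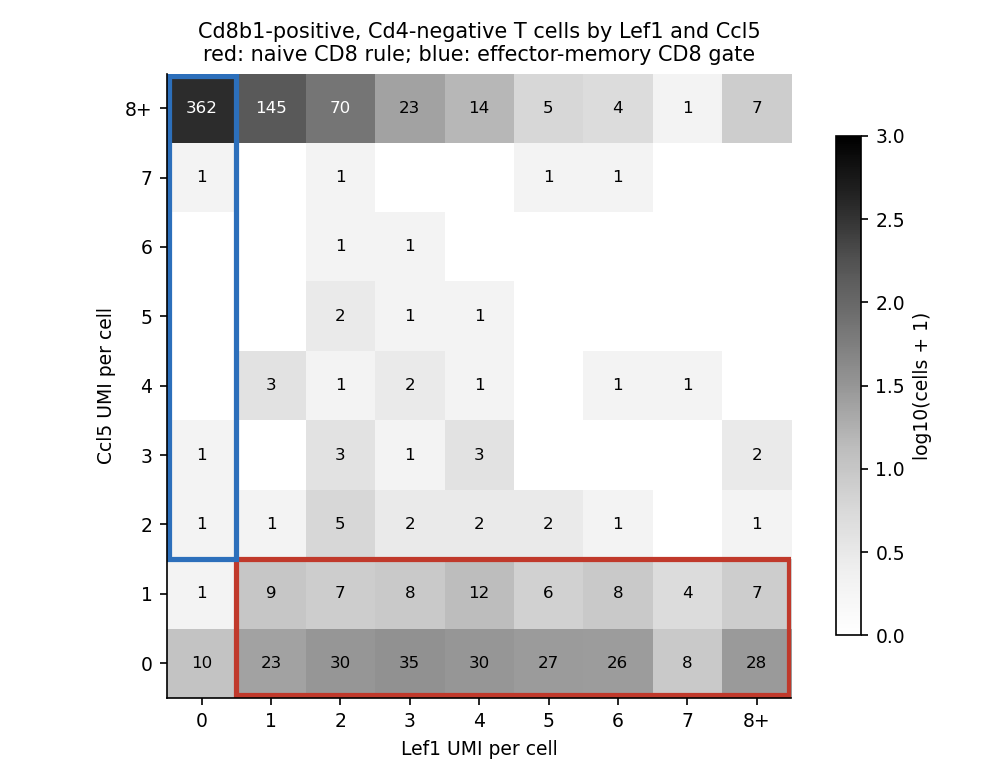
Number of Cd8b1-positive, Cd4-negative T cells at each combination of Lef1 UMI (horizontal axis) and Ccl5 UMI per cell (vertical axis), with 8 or more pooled in the last row and column and the grey scale showing log10(cells + 1). The red box holds the 268 naive CD8 T cells and the blue box the 365 effector-memory CD8 T cells; 310 cells had both Lef1 and at least 2 Ccl5 UMI, and most of these held 8 or more Ccl5 UMI.

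The 954 cells split into 268 members, 365 cells without Lef1 and with at least 2 Ccl5 UMI, 310 cells with both, and 11 cells with neither. Ccl5 encodes a chemokine that cytotoxic T cells store. The count map of Lef1 against Ccl5 shows few cells at intermediate Ccl5: just outside the definition lay 23 Lef1-positive cells with 2 or 3 Ccl5 UMI and 20 with 4 to 9, against 267 with 10 or more. The 23 cells just outside held 736 CPM of Ccr7 and 11.5 CPM of Gzma, where CPM is UMI per 1000000 UMI summed over the cells of a gate. The 61 members with 1 Ccl5 UMI, just inside, held 667 CPM of Ccr7 and 20.1 CPM of Gzma, and the 207 members with none held 727 and 22.3 CPM. At the Lef1 border, 32 members had a single Lef1 UMI and 236 had more, and the 11 cells just outside, at 0, held 764 CPM of Ccr7. The Lef1 and Ccl5 counts were part of how the members were chosen. Ccr7 and Gzma were not genes of the definition, and their values only describe the border.

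The depth of a member lay between 2841 and 30936 UMI (median 6071), and its median number of genes was 1924.5. The 2 gates made for comparison, effector-memory CD8 T cells (365 cells, median 4069 UMI) and naive CD4 T cells (213 cells, median 4958 UMI, the same definition with Cd4 and Cd8b1 exchanged), were shallower. B cells (3016 cells, median 3297 UMI) and Kupffer cells (735 cells, median 14656 UMI), which should lack T cell transcripts, served as an approximate measure of free RNA. Both gates excluded other cells only by the Cd3 genes, and 91 and 16 of their cells were Scrublet doublets that were kept. The highest B cell held 594 UMI of the cytotoxic list, where the median was 1. How much of the levels in these gates was free RNA was not tested. Of the naive CD4 gate, 84 of 213 cells held a UMI of Foxp3, Ctla4 or Maf, genes of regulatory and activated CD4 T cells, so that gate was not purely naive. Scrublet called 3 members doublets, and 6 members had 20 or more UMI of 56 marker genes of non-T lineages. Those 6 held 70.2% of the members' non-T UMI, and the other 262 members held 11 at most, with a median of 4.

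The genes of the definition had these levels in the members. Cd8b1, the beta chain of the CD8 coreceptor (ENSMUSG00000053044, chr6:71322788-71337494 of mm10, plus strand), ranged from 1 to 25 UMI per cell with a median of 3. Lef1 (ENSMUSG00000027985, chr3:131110471-131224356, plus strand) ranged from 1 to 17 with a median of 4. Cd3d was found in 261 members, Cd3g in 257 and Cd3e in 231. Ccl5 was found in 61 members at 1 UMI, Ms4a1 and Cd4 in none, Ebf1 in 5, Mki67 in 5 and Top2a in 16. The definition fixed these levels, which are given as a description.

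The levels of 3 marker genes that the definition did not use are given next. These markers were chosen with earlier results of these data known, so they are no independent check of the label. Dapl1, a gene of quiescent lymphocytes (ENSMUSG00000026989, chr2:59484653-59505020, plus strand), had 233 CPM (95% Poisson interval 211 to 257) and was found in 131 of 268 members, with 0 to 12 UMI per cell. Nsg2, which encodes a small endosomal membrane protein (ENSMUSG00000020297, chr11:32000463-32059202, plus strand), had 87.7 CPM (74.2 to 103) in 107 members. Ccr7, the lymph node homing receptor (ENSMUSG00000037944, chr11:99144196-99155077, minus strand), had 713 CPM (674 to 754) in 257 members, at a median of 4 and a maximum of 17 UMI. B cells and Kupffer cells held 0.496 and 0.0888 CPM of Dapl1 and 0.579 and 0.178 CPM of Nsg2, so both were near 0 in these gates. Ccr7 does not separate naive T cells from B cells, which held 670.2 CPM. All 3 markers outside the definition were thus present in members, Dapl1 and Nsg2 far above their levels in B cells and Kupffer cells. They do not set members apart from naive CD4 T cells. The log2 ratios of naive CD8 to naive CD4 cells were 0.61 for Dapl1, -0.26 for Nsg2 and 0.79 for Ccr7.

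The 250 bases upstream of the RefSeq start site (GRCm38.p6, which is the mm10 assembly) are shown for the markers Dapl1 and Nsg2 and for Ccr9, a gut and thymus homing receptor found below in members and rarely in the other T cell gates. Capitals mark words bound by transcription factor families of the naive state, searched on both strands. For TCF and LEF proteins the words were CTTTGA and CTTTGT, and for forkhead proteins the word was GTAAACA. No word of one family contains a word of the other.
Dapl1, chr2:59484403-59484652, plus strand: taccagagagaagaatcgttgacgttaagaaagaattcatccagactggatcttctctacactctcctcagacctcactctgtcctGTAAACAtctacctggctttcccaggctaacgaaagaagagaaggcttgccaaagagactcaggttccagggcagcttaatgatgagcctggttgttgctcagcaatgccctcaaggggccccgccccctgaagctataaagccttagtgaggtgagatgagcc
Nsg2, chr11:32000169-32000418, plus strand: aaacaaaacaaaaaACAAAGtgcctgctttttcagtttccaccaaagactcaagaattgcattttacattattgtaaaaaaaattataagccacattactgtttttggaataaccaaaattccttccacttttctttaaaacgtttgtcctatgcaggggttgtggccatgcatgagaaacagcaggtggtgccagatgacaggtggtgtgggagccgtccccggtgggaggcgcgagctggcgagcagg
Ccr9, chr9:123766961-123767210, plus strand: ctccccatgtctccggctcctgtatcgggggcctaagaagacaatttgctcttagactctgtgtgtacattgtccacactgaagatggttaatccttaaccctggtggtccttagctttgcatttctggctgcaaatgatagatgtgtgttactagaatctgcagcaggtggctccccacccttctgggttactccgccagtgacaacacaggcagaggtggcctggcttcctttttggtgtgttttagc
The Dapl1 window holds 1 forkhead word and no TCF/LEF word, the Nsg2 window 1 TCF/LEF word on the minus strand, and the Ccr9 window neither. TCF/LEF words stood in 27.7% of the 27025 promoters of the table and in 20.3% of the 4292 that belong to genes counted in the comparison with effector-memory cells. Among 132 such promoters of genes at least 2-fold higher in naive CD8 cells they stood in 20.5%, and the forkhead word stood in 1.52% of these against 2.24% of the counted genes. Short words of this kind are common, and a match is no evidence of binding.

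Against effector-memory CD8 T cells, naive CD8 T cells held at least 2-fold more RNA of 12 of 14 naive T cell genes, among them Ccr7, Dapl1 and Il7r, and at least 2-fold less of 22 of 23 counted cytotoxic genes, among them the granzymes Gzma, Gzmb and Gzmk. Of 5382 genes with at least 25 CPM in either gate, 174 were at least 2-fold higher in naive CD8 cells (3.23%) and 742 at least 2-fold lower (13.8%), 17.0% in all, with 1 CPM added to both sides and the 11 genes of the gates left out. The median log2 ratio over all counted genes was -0.26. Ribosomal protein genes made up 35.6% of the UMI of members and 19.8% of those of effector-memory cells, which lowers all other shares. With a total that leaves out ribosomal protein, mitochondrial, haemoglobin and hepatocyte genes, the median became 0.11 and the split 445 higher to 557 lower. With the ratios centred on their median the split was 300 to 512. Because the gates were set on Lef1 and Ccl5, genes that vary with these differ in part through the choice of cells.

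**Figure D2:**
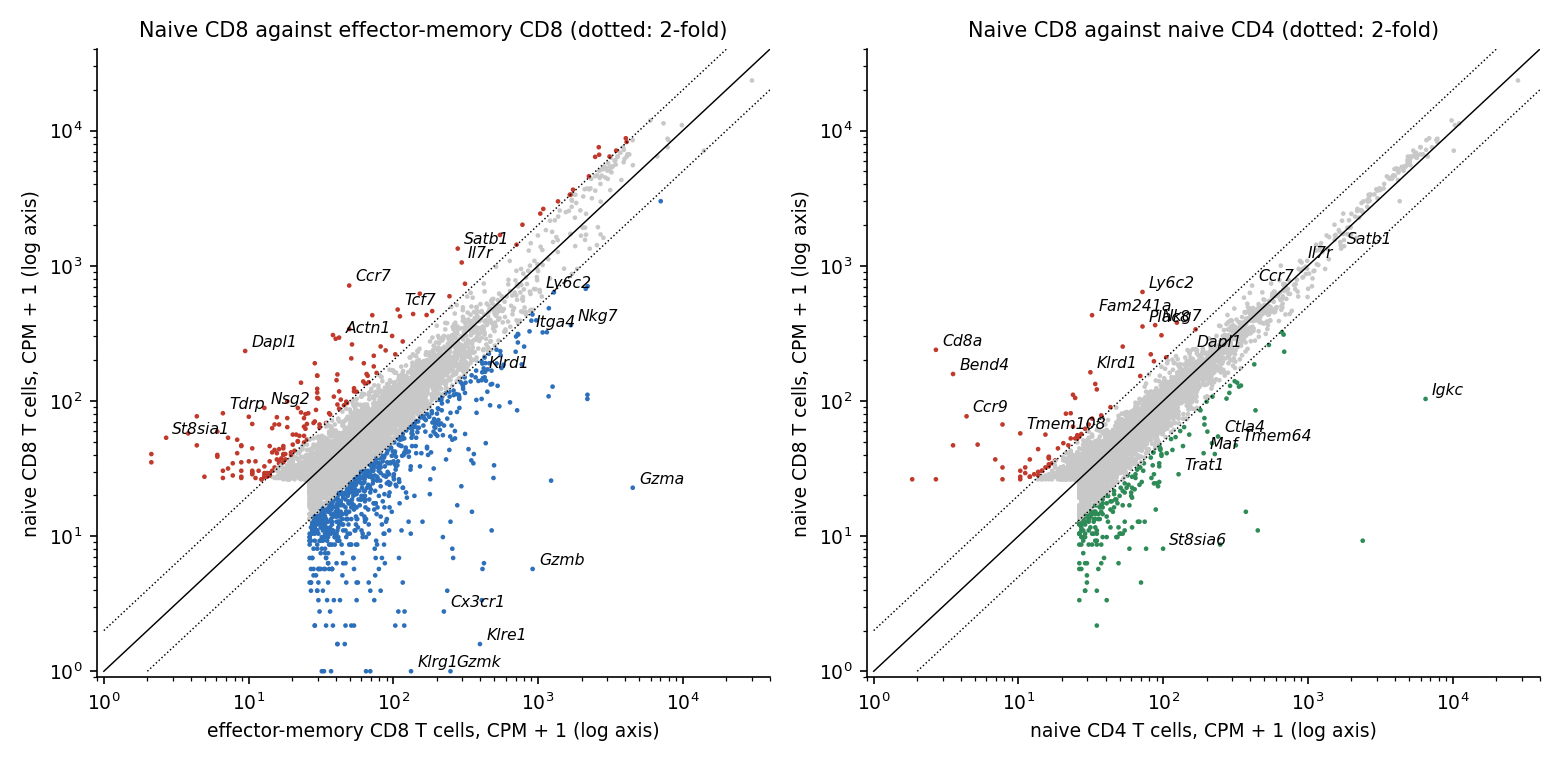
Level of each counted gene in naive CD8 T cells (vertical, CPM + 1, log axis) against effector-memory CD8 (left) or naive CD4 T cells (right; horizontal, CPM + 1, log axis), 1 point per gene, with dotted lines at 2-fold and points beyond them coloured by the gate that is higher. Against effector-memory cells 174 genes lie above and 742 below the lines, with Gzma, Gzmb and Klre1 far below; against naive CD4 cells 69 lie above and 209 below.

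The 14 naive T cell genes all passed the 25 CPM minimum. Of these, 12 were at least 2-fold higher in naive CD8 than in effector-memory CD8 cells and none lower, with a median log2 ratio of 2.72 (all counted genes -0.26). Ccr7 was 14.7-fold higher (11.8 to 18.5): 713 CPM in 95.9% of members against 48.6 CPM in 7.12% of effector-memory cells. Dapl1 had 233 against 8.47 CPM, a ratio of 27.5 (16.5 to 49.6). The effector-memory gate leaves out Ccl5-positive cells that held Lef1, of which 34.8% had a Ccr7 UMI. With those cells in the gate the log2 ratio of Ccr7 was 2.13 in place of 3.85, and with at most 5% mitochondrial UMI it was 5.18. For Dapl1 it was 2.71 in place of 4.63 with those cells.

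Il7r, the interleukin 7 receptor alpha chain, ran from 0 to 24 UMI per member with a median of 6. It had 1056 CPM in members and 296 in effector-memory cells, a ratio of 3.57 (3.24 to 3.94). S1pr1, the receptor for exit from lymph nodes, had 461 against 185 CPM. Actn1, an actin cross-linker, was 7.11-fold higher (5.55 to 9.22), and Rflnb, Igfbp4, Ramp1, Treml2 and Nsg2 were between 5.31- and 7.64-fold higher. The remaining 2 list genes did not exceed 2-fold: Trat1, an adaptor of the T cell receptor, had a log2 ratio of -0.06 and Sorl1, a sorting receptor, -0.98.

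**Figure D3:**
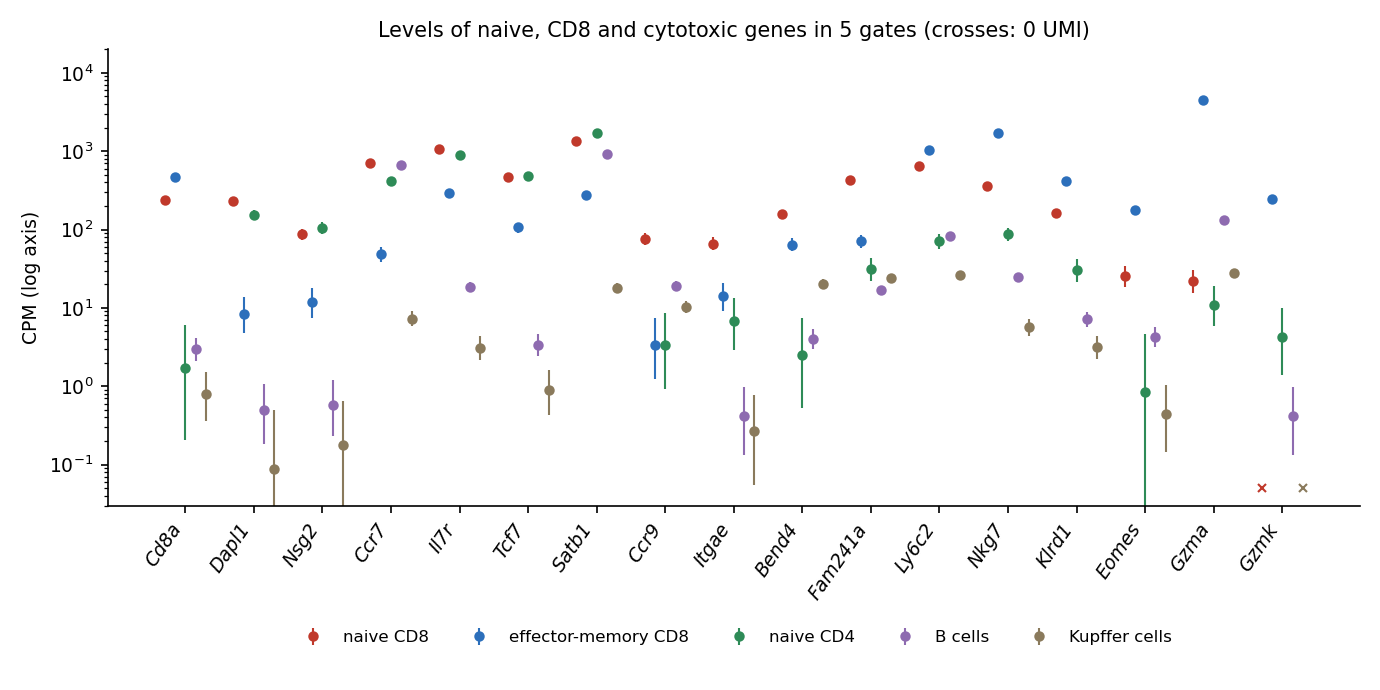
Levels (CPM, log axis) of 17 genes in the 5 gates, with exact Poisson 95% intervals that cover counting error only; crosses at the bottom mark 0 UMI, and intervals reaching below 0.03 CPM are clipped. Dapl1 and Nsg2 are high in both naive gates and low elsewhere, Ccr9 and Itgae are highest in naive CD8 cells, and Gzma and Gzmk are high in effector-memory cells only among the T cell gates.

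Since members held more UMI per cell than effector-memory cells (medians 6071 and 4069), each cell was also thinned to 2000 UMI. Thinning kept all 268 members and left out 7 of 365 effector-memory cells. At this depth 70.9% of members and 3.35% of effector-memory cells had a Ccr7 UMI, 84.3% and 28.8% an Il7r UMI, and 66.4% and 14.5% a Tcf7 UMI. For Dapl1 the thinned shares were 29.5% and 1.40%, where 48.9% and 2.19% had a UMI before thinning. Summed over the 14 naive genes, members held 1 to 19 UMI per thinned cell with a median of 8, and no member was at 0. Effector-memory cells held 0 to 11 with a median of 1, and 105 of 358 were at 0, so the ranges overlapped while the quartiles (5.75 to 10 against 0 to 3) did not.

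The 10 genes with the highest ratio to effector-memory cells, among genes found in at least 25% of members, included 6 outside that list. St8sia1, a ganglioside sialyltransferase, had 52.4 against 1.69 CPM, and with only 3 UMI in effector-memory cells its ratio of 30.9 is loose (10.2 to 153). Tmem108 had 56.5 against 2.82 CPM, and Tdrp 80.1 against 5.65. Trib2, a pseudokinase, had 58.3 against 5.08 CPM, and Ifngr2, the second chain of the interferon gamma receptor, 75.4 against 9.04. Rgs10, a regulator of G protein signalling, had 287 against 39.0 CPM. Ifngr1, the first receptor chain, went the other way without reaching 2-fold, with 453 CPM in members and 819 in effector-memory cells.

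Of 19 transcription factors of T cell lineage and quiescence, 17 were counted outside the definition, 6 higher by at least 2-fold and 3 lower (3.23% and 13.8% of all counted genes, the latter a share near that of the list), with a median log2 ratio of 0.11. Tcf7, which encodes TCF1, ran from 0 to 10 UMI per member (median 3) and had 473 CPM in members and 106 in effector-memory cells, a ratio of 4.46 (3.80 to 5.25). Satb1, a chromatin organiser, had 1339.7 against 278 CPM, and Bach2, a repressor of effector genes, was 6.15-fold higher at 135 CPM. Foxp1 had 736 against 312 CPM, Zeb1 302 against 97.2 and Myb 153 against 28.8. Gata3, Runx1 and Id3 were lower, at log2 ratios of -1.45, -1.62 and -1.33, and 17 of the 46 Id3 UMI came from 1 member. Klf2, which drives S1pr1, had similar levels of 1001 and 878 CPM (log2 ratio 0.19), as had Ets1 (-0.07) and Foxo1 (-0.09).

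Among 19 counted cytokine receptor and survival genes of 22, 4 were higher and 2 lower, with a median of 0.05. Of all counted genes 3.23% were higher and 13.8% lower, so the lower genes of this list were no more frequent than among all genes. The higher ones were Il7r, the interleukin 4 receptor Il4ra (179 against 72.3 CPM), the interleukin 6 receptor Il6ra (87.7 against 20.9) and the survival gene Bcl2 (431 against 169). Il2rb, the shared interleukin 2 and 15 receptor chain, was lower at 189.6 against 433 CPM, a ratio of -1.19 in log2 that became -0.84 with the total that leaves out ribosomal protein genes. Cish, induced by STAT5, was lower at 7.66 against 55.4 CPM. Il2rg, the common chain, was level at 238 and 237 CPM.

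Cytotoxic genes were low in the members. Of 24 genes of the cytotoxic and effector list, 23 were counted outside the definition, and 22 were at least 2-fold lower than in effector-memory cells (13.8% of all counted genes), with a median log2 ratio of -4.03. The exception was Ctsw. Gzma, granzyme A, had 21.8 CPM (15.3 to 30.0) in 29 members against 4513 CPM in effector-memory cells. B cells, which lack the gene, held 133 CPM of Gzma, more than the members did. Gzmb had 4.71 against 917 CPM. No Gzmk or Klrg1 UMI was found in any member. For such cells at this depth, 3 divided by 268 gives an approximate upper limit of 1.12% for the share with a UMI. At a floor of 3 UMI over the gate, Gzmk and Klrg1 were at least 140.1-fold and 74.5-fold lower.

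The killer cell lectin receptors Klre1, Klrc1, Klrc2 and Klrk1 were among the 10 lowest ratios of genes found in at least 25% of effector-memory cells. Klre1 rested on 1 UMI in members (396 CPM in effector-memory cells, ratio 672, interval 120.3 to 26599). Klrc1, Klrc2 and Klrk1 had 5.30, 2.36 and 4.71 CPM in members against 422, 408 and 412. Fasl, the death ligand, had 2.94 against 235 CPM, and Cx3cr1, the fractalkine receptor of effector cells, 1.77 against 223 with 3 UMI in members. Ccl4 and Ccl3 had 110.1 and 43.0 CPM in members, but 1 member held 73 of 187 Ccl4 UMI and 1 held 55 of 73 Ccl3 UMI. Ccl4 was found in 33 members in all, and its level in B cells was 132 CPM.

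**Figure D4:**
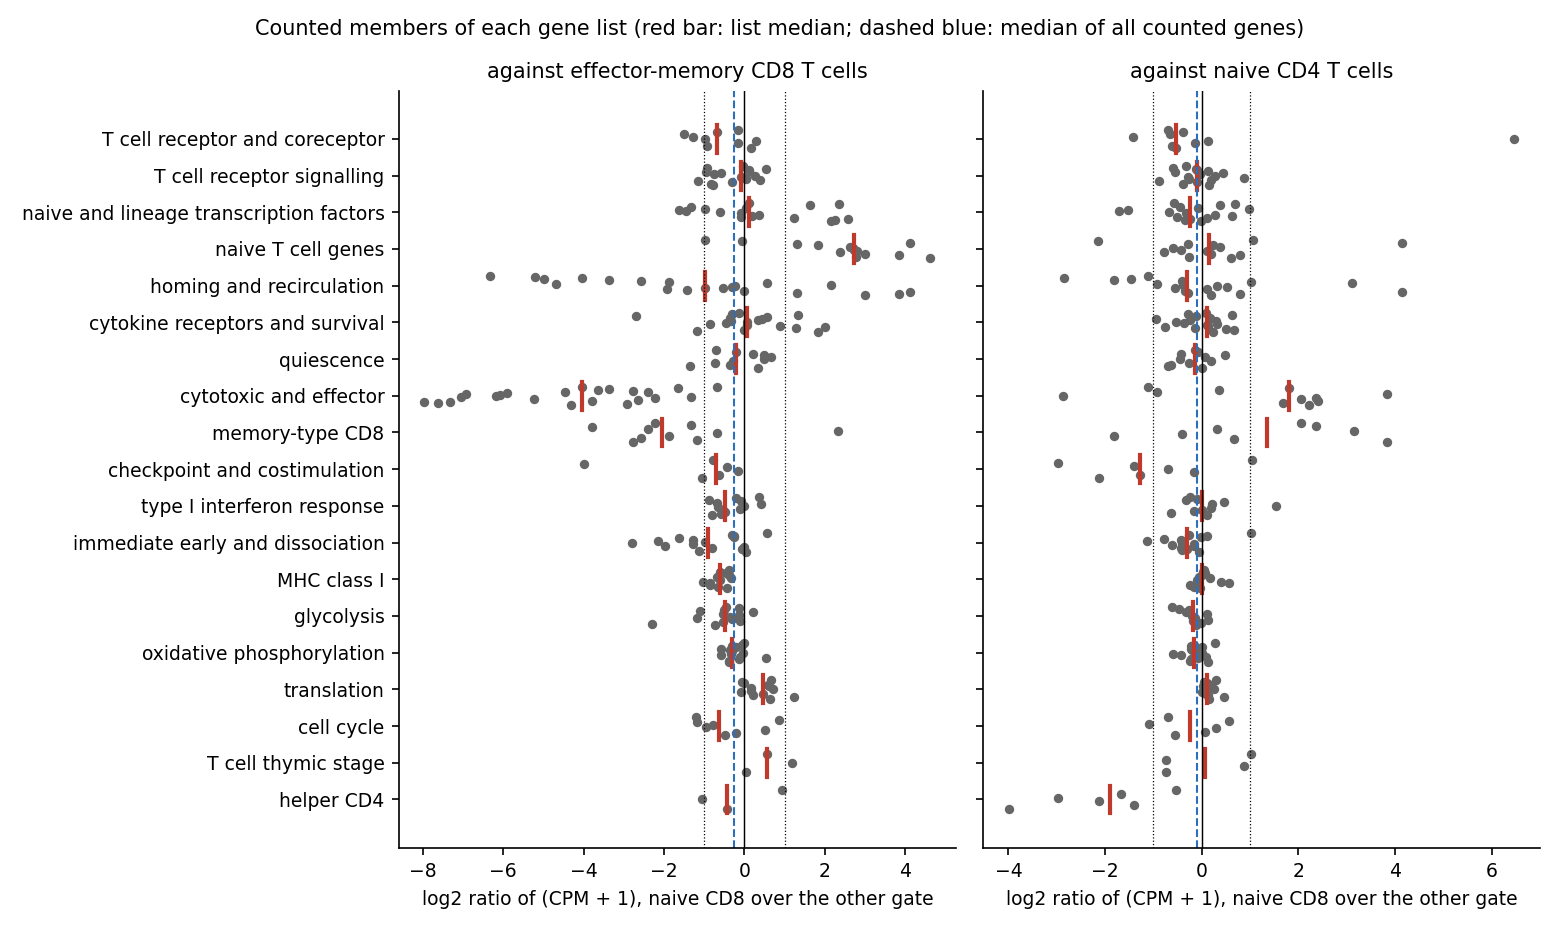
Log2 ratio of (CPM + 1) in naive CD8 over effector-memory CD8 (left) or naive CD4 T cells (right) for each counted member of 19 gene lists (grey points; vertical position within a list has no meaning), with list medians as red bars, the median of all counted genes as a dashed blue line and 2-fold as dotted lines. Against effector-memory cells the naive T cell list has a median of 2.72 and the cytotoxic list -4.03; against naive CD4 cells the cytotoxic list has a median of 1.81 and the helper CD4 list -1.90.

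Nkg7, Ly6c2 and Klrd1, usually read as cytotoxic or memory-type genes, were each found in most members. Nkg7, a granule membrane protein, had 363 CPM and was found in 206 of 268 members (76.9%), at a median of 2 and a maximum of 22 UMI. Effector-memory cells held 1686 CPM in 98.6% of cells, naive CD4 cells 87.0 CPM in 9.86% and B cells 24.7 CPM in 3.38%. At 2000 UMI per cell the shares were 42.5%, 92.5%, 6.10% and 1.97%. The share of members thus lay between that of effector-memory cells and those of naive CD4 and B cells.

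Klrd1, which encodes CD94, had 162 CPM in 145 members against 411 CPM in effector-memory and 30.4 in naive CD4 cells. Its log2 ratio to effector-memory cells of -1.34 was -0.99 with the total that leaves out ribosomal protein genes. Ctsw, the cysteine protease cathepsin W, had 121, 195 and 33.8 CPM in the same order. Ly6c2, a surface antigen of central memory and interferon-exposed cells, had 639.5 CPM in 195 members, 1028 in effector-memory and 71.0 in naive CD4 cells. These 3 genes had the same order in the T cell gates as Nkg7, and Ly6c2 and Ctsw were within 2-fold of effector-memory cells as reported. The log2 ratio of Ly6c2 was -0.68 as reported and -1.03, just past 2-fold, with cells thinned to 2000 UMI.

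Among the other memory-type genes, Il2rb was found in 153 members and Slamf6 in 181, and the following in fewer. Eomes, a transcription factor of memory CD8 cells, was found in 27 members (25.3 CPM) against 150 effector-memory cells (179 CPM), 1 naive CD4 cell and 4.30 CPM in B cells. Cd44, an adhesion receptor raised on antigen experience, was found in 40 members at 54.2 CPM, and 1 member held 33 of its 92 UMI. Cxcr3 was found in 7 members and Xcl1 in 4. Prf1, perforin, was found in 49 members at 35.9 CPM against 230.5 CPM. Of the 10 memory-type genes, 8 were at least 2-fold lower than in effector-memory cells (13.8% of all counted genes), and 1, Slamf6, a costimulatory receptor kept by stem-like cells, was higher at 261 against 50.8 CPM (list median -2.04).

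**Figure D5:**
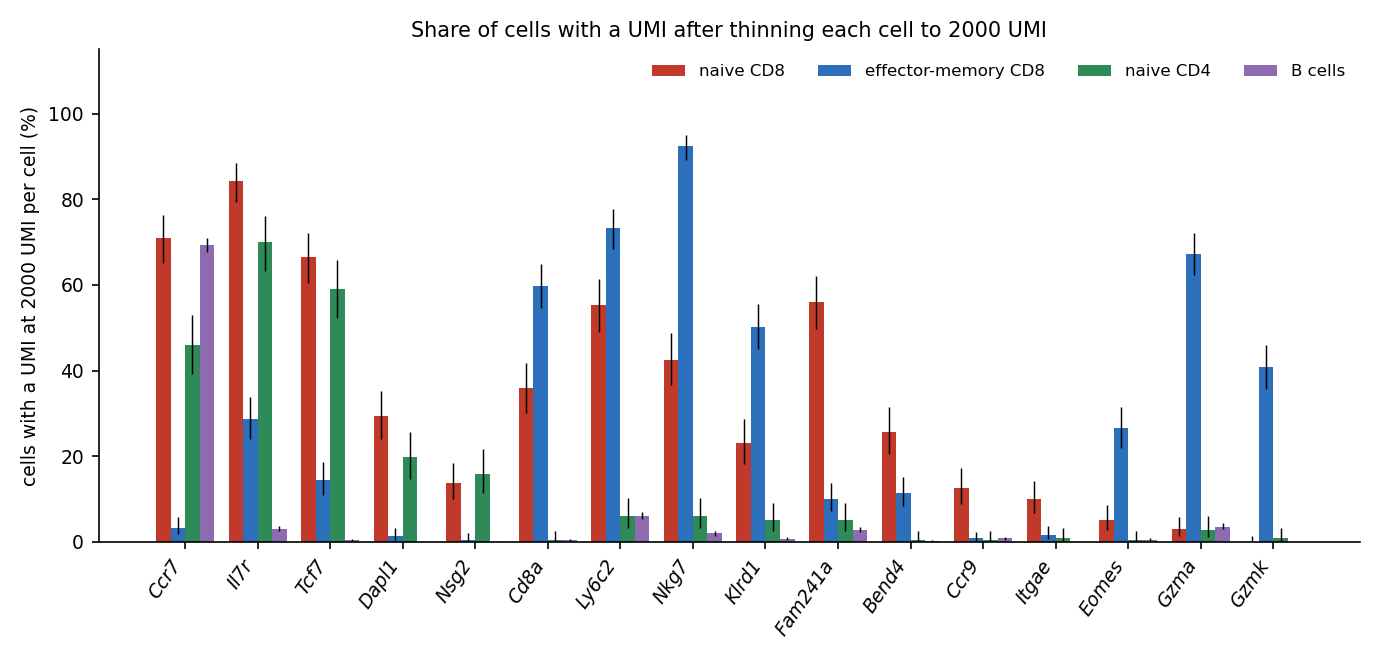
Share of cells (%) with a UMI of 16 genes after thinning each cell to 2000 UMI, in naive CD8 (268), effector-memory CD8 (358), naive CD4 (213) and B cells (2940), with exact binomial 95% intervals. Nkg7 and Ly6c2 stand at 42.5% and 55.2% of members, between effector-memory and naive CD4 cells, while Gzma stands at 2.99% of members, near the 3.57% of B cells.

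Homing receptors split by direction. All 21 genes of the homing list were counted, 5 higher and 10 lower (3.23% and 13.8% of all counted genes), with a median of -0.97. Besides Ccr7 and S1pr1, the higher genes included Ccr9 (76.0 against 3.39 CPM, ratio 22.4, 10.0 to 62.2) and Itgae, the epithelial integrin chain CD103 (66.0 against 14.1 CPM, ratio 4.67, 3.01 to 7.52). Lower genes included the inflammatory chemokine receptors Ccr2 (7.07 against 255 CPM), Cxcr6 (10.0 against 113), Cxcr3 and Cx3cr1. The integrin chains Itga1, Itgal and Itga4 were lower, at log2 ratios of -4.68, -1.93 and -1.42, as was Itgb1 outside the list (47.7 against 434 CPM). S1pr5 had no UMI in members and 36.2 CPM in effector-memory cells, at least 20.5-fold lower. Cd69, which holds T cells in tissue by opposing S1pr1, was found in 159 members at 337 CPM, against 228 CPM in effector-memory cells.

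The T cell receptor, signalling, interferon and metabolic lists each held at most 3 genes beyond 2-fold. Of all counted genes 17.0% were apart, so the T cell receptor and glycolysis lists were not below that share. Of 9 counted T cell receptor and coreceptor genes of 14, none was 2-fold higher and 2 were lower (3.23% and 13.8% of all counted genes). The lower ones were Cd5 (55.4 against 135 CPM) and Cd6 (68.3 against 197), both inhibitory surface receptors. With the total that leaves out ribosomal protein genes the log2 ratio of Cd5 was -0.93, under 2-fold. Cd8a, the alpha chain, had 238 CPM in 198 members against 473 CPM, just inside 2-fold (log2 ratio -0.99). Of 17 counted signalling genes 1, the adaptor Lcp2, was lower (73.0 against 163 CPM), and the kinase Lck had a log2 ratio of -0.77. None of 13 counted interferon response genes and none of 15 oxidative phosphorylation genes exceeded 2-fold, with medians of -0.48 and -0.30 that became 0.12 and 0.05 with the reduced total. Of 14 counted glycolysis genes 3 were lower (13.8% of all counted genes), the glucose transporter Slc2a3 and the enzymes Pfkp and Pgam1, with a list median of -0.48.

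Immediate early genes, which dissociation of tissue can induce, were counted for 16 of 18 genes: 7 were lower and none higher (13.8% and 3.23% of all counted genes), with a median of -0.90. Egr1 had 102 against 407 CPM, Nr4a1 58.9 against 266 and Fosb 118 against 259.9, while Fos (336 and 325) and Jun (178 and 186) were level. The list median was -0.32 without the cells that held 20 or more non-T UMI. The part of sorting and digestion in these values was not tested. Of 11 counted quiescence genes 1, the antiproliferative Btg2, was lower (217 against 551 CPM), while its relative Btg1 had 2267 and 1798 CPM. Of 12 MHC class I pathway genes 1, H2-Q7, was lower (634 against 1286 CPM), and B2m, the light chain, had 1929 and 2593 CPM. Genes of the H2-Q group share sequence, so how reads were divided among them is uncertain.

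Ribosomal protein genes mostly had ratios above 1, few of them past 2-fold. Of 87 counted ribosomal protein genes, 86 had a ratio above 1 and 16 were at least 2-fold higher (3.23% of all counted genes), with a median log2 ratio of 0.81. Of 13 translation factor genes 11 had a ratio above 1 and 1 was at least 2-fold higher, Eef1b2 (2432 against 1036 CPM), and the list median was 0.46. Eef1a1 had 6662 against 4274 CPM, Npm1 1469 against 889.8 and Rack1 3255 against 2053. Actb was lower at 3004 against 7044 CPM. Tpt1, a translationally controlled growth factor of all cells, had 11318 against 7363 CPM.

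Marker genes of other lineages also differed between the gates. The 56 non-T markers summed to 1891 CPM in members and 4607 CPM in effector-memory cells, with 53 and 55 of them found. All 8 endothelial markers and 5 counted neutrophil markers were at least 2-fold lower in members (13.8% of all counted genes). Neutrophil markers summed to 432 CPM in members, of which 1 member with 609 of 733 UMI held most (73.0 CPM without it), and to 1517 CPM in effector-memory cells (917 without its highest cell). Kupffer markers summed to 641 CPM in members and 83.0 without the highest cell, which held 947 of 1088 UMI. Without all cells of 20 or more non-T UMI, 819 genes remained apart, 180 higher and 639 lower, and the medians of the naive and cytotoxic lists were 3.24 and -5.38. The number of lower genes thus went from 742 to 639, while the number of higher genes went from 174 to 180. Markers of NK cells and group 1 innate lymphoid cells were found for 8 of 10 genes in members, at 243 CPM against 1298 CPM, with Ncr1 and Klra4 at 0. B cell markers summed to 181 against 76.3 CPM (9 of 10 found, Ms4a1 at 0), and markers of unconventional T cells to 234 against 354 CPM (8 of 10, with Tcrg-C2 and Il17a at 0).

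The 310 cells that held Lef1 and at least 2 Ccl5 UMI had values between those of the gates for these 4 genes. They held 265 CPM of Ccr7, 58.6 of Dapl1, 1197 of Nkg7 and 2607 of Gzma, where members had 713, 233, 363 and 21.8. The 267 of them with 10 or more Ccl5 UMI held 177 CPM of Ccr7, 33.5 of Dapl1 and 3145 of Gzma, and the 20 with 4 to 9 held 638 CPM of Ccr7 and 244 of Dapl1. When they were added to the effector-memory gate (675 cells), 566 genes were apart, 95 higher and 471 lower, and the median of the naive list was 1.83. Bend4, Bcl2, Zeb1 and Eef1b2 were then under 2-fold, at log2 ratios of 0.84, 0.68, 0.97 and 0.82.

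Against naive CD4 T cells, 11 of the 14 naive T cell genes lay within 2-fold. That is a smaller share than of all counted genes, of which 5.57% were apart. Over all counted genes, more were lower than higher in the members. The higher genes included Cd8a, Bend4, Fam241a, Nkg7, Klrd1, Ccr9 and Itgae. This comparison uses the same 268 members as the one above. Of 4995 counted genes, 69 were at least 2-fold higher in naive CD8 cells (1.38%) and 209 at least 2-fold lower (4.18%), 5.57% in all, with a median log2 ratio of -0.10. With the total that leaves out ribosomal protein genes the split was 169 higher to 274 lower. Without the 84 CD4 cells that held Foxp3, Ctla4 or Maf, it was 180 higher to 94 lower, so the direction of the split turned without those cells. Only the CD4 gate was filtered in this way, although some members also held Ctla4 or Maf.

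The naive T cell list had a median of 0.15 over 14 genes, with 2 higher and 1 lower (1.38% and 4.18% of all counted genes). Ccr7 had 713 CPM in naive CD8 and 411 in naive CD4 cells (log2 ratio 0.79), and Dapl1 233 and 153 (0.61). Il7r (0.23), Tcf7 (-0.01), Nsg2 (-0.26) and S1pr1 (-0.28) lay within 2-fold as well. Satb1 was at 1339.7 CPM in naive CD8 and 1695 CPM in naive CD4 cells. Without the Foxp3, Ctla4 or Maf cells the list median was -0.21 and Ccr7 was at 0.47.

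The next genes had the 10 highest ratios to naive CD4 cells among counted genes found in at least 25% of members. They were Cd8a, Bend4, Fam241a, Ly6c2, Tmem108, Klrd1, Plac8, Ap1ar, Nkg7 and Ehd1. Cd8a had 238 CPM against 1.69, with 2 UMI in naive CD4 cells (ratio 141, 38.7 to 1166). Bend4, which encodes a BEN domain protein, had 157 against 2.54 CPM and was found in 152 of 268 members and 2 of 213 naive CD4 cells (ratio 62.0, 21.0 to 303, on 3 UMI). Fam241a had 429.9 against 31.3 CPM in 234 and 29 cells (ratio 13.7, 9.88 to 19.7). Effector-memory CD8 cells held 64.4 CPM of Bend4 and 70.6 of Fam241a, and B cells 4.05 and 16.7, so both genes were highest in naive CD8 cells among the 5 gates.

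Plac8 had 355 against 71.0 CPM but also 414 in effector-memory and 779 in B cells. Tmem108 and Ap1ar had 56.5 and 104 CPM against 9.30 and 23.7. Ehd1, an endocytic recycling protein, had 79.5 against 20.3 CPM, and 1 member held 20 of its 135 UMI. Runx3, a transcription factor of the CD8 lineage, lay just under 2-fold at 156 against 78.6 CPM (log2 ratio 0.98), and Themis, a signalling protein of thymic selection, at 0.88. Zbtb7b, the CD4 lineage factor, had 3 UMI in members and did not reach 25 CPM in any of the 3 T cell gates.

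The cytotoxic list had 11 counted genes of 24 against naive CD4 cells, 7 higher and 2 lower (1.38% and 4.18% of all counted genes), with a median of 1.81. The higher genes were Nkg7 (363 against 87.0 CPM), Klrd1 (162 against 30.4), Ctsw (121 against 33.8), Prf1 (35.9 against 5.92), Eomes (25.3 against 0.845), Ccl4 and Ccl3. The lower genes included Fasl (2.94 against 27.9 CPM). The sign of the median depended on which genes were counted: with genes of 10 CPM or more it was -0.61, and without the Lef1 condition in both naive gates -0.05. The memory-type list had 8 counted genes, 4 higher and 1 lower (again 1.38% and 4.18% of all counted genes), with a median of 1.36. That median was 0.10 without the Lef1 condition, 0.67 with genes of 10 CPM or more and 3.17 without the Foxp3, Ctla4 or Maf cells.

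Ccr9 and Itgae were high in a minority of members. Ccr9 was found in 62 of 268 members at 76.0 CPM, in 4 of 213 naive CD4 cells at 3.38 CPM and in 6 of 365 effector-memory cells (ratio to naive CD4 22.5, 8.57 to 83.7). Its UMI per member ran from 0 to 21, and the second highest member had 5. Without the Lef1 condition in both naive gates the log2 ratio to naive CD4 cells was 1.55 in place of 4.14. B cells held 19.2 CPM in 1.43% of cells, below the 23.1% of members, and at 2000 UMI the shares were 0.850% and 12.7%. Itgae was found in 61 members at 66.0 CPM and in 6 naive CD4 cells at 6.76 CPM (ratio 9.76, 4.78 to 23.2). Its log2 ratio of 3.11 was 1.97 without the Lef1 condition and 6.07 without the Foxp3, Ctla4 or Maf cells.

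Both genes were found together in 19 members, Ccr9 alone in 43, Itgae alone in 42 and neither in 164. Of the 32 members with a single Lef1 UMI 1 had Ccr9 and 2 had Itgae, against 61 and 59 of the 236 members with more Lef1, at median depths of 5948.5 and 6072.5 UMI. Sox4, expressed in immature lymphocytes, was found in 24 members at 24.7 CPM, 1 effector-memory cell and 29 naive CD4 cells. Rag1 and Rag2, the recombinase genes of thymocytes, had no UMI in members, and Dntt and Ptcra 1 each. Cd24a was found in 5 members.

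Of the 10 helper CD4 genes, 6 were counted and 5 were at least 2-fold lower in members (4.18% of all counted genes), with a median of -1.90. The list holds genes chosen for CD4 cells, so this direction is no independent result, and the median was -0.35 without the Foxp3, Ctla4 or Maf cells. Cd40lg, the CD40 ligand, had 2 UMI in members against 33.8 CPM in naive CD4 cells. Icos and Tnfrsf4, costimulatory receptors, had 103 and 5.30 CPM against 273 and 48.2. Izumo1r, a folate receptor family member of regulatory T cells, had 18.3 against 60.0 CPM. Ctla4 was found in 44 members at 53.6 CPM against 238 in naive CD4 and 113 in effector-memory cells. Foxp3 had no UMI in members and was found in 9 naive CD4 cells.

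Among counted genes found in at least 25% of naive CD4 cells, 10 had the lowest ratios to that gate. They were Igkc, St8sia6, Tmem64, Tbc1d4, Tspan32, Maf, Itgb1, Trat1, Ctla4 and Tesc. St8sia6 had 7.07 against 98.9 CPM (naive CD4 over naive CD8 14.0, 7.71 to 27.9), Tmem64 45.9 against 317 (6.90, 5.39 to 8.92) and Trat1 27.7 against 127 (4.58, 3.28 to 6.50). Tbc1d4, Tspan32 and Tesc had 14.7, 11.8 and 24.1 CPM against 87.9, 65.9 and 93.0. Maf had 40.0 against 189 CPM, and 28 of its 68 UMI in members were in 1 cell. Igkc, an immunoglobulin chain and no T cell gene, had 102 CPM in members with at most 4 UMI per cell, against 6502 CPM in the CD4 gate, and the log2 ratio went from -5.97 to -0.08 without the 84 CD4 cells. St8sia1, a sialyltransferase of the same family as St8sia6, had 52.4 CPM in naive CD8 and 66.8 CPM in naive CD4 cells.

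Further genes, some of them surface receptors, were also lower in members than in naive CD4 cells. The surface receptors Cd5 and Btla had 55.4 against 150.4 CPM (log2 ratio -1.43) and 20.6 against 51.5. The pseudokinase Trib2 had 58.3 against 201. Gata3 and Runx1 were lower at -1.70 and -1.53. The checkpoint and costimulation list had 7 counted genes of 14, 4 lower and 1 higher (4.18% and 1.38% of all counted genes). The higher gene was Cd226 (51.8 against 24.5 CPM). The list median of -1.28 became -0.07 without the Foxp3, Ctla4 or Maf cells. Pdcd1, Lag3, Tigit and Havcr2, inhibitory receptors of exhausted cells, were found in 1, 5, 5 and 1 members. No ribosomal protein, signalling, cytokine receptor, quiescence, MHC class I or metabolic list held a gene 2-fold apart between the naive gates as reported. Of all counted genes only 5.57% were apart, so for the short lists the absence of such genes is close to that share. Il2rb of the cytokine receptor list, at a log2 ratio of 0.67, passed 2-fold with at least 2 Lef1 UMI (1.60) and without the Foxp3, Ctla4 or Maf cells (2.32).

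A few genes varied among members well beyond counting. Over 262 members without the 6 that held other transcripts, each thinned to 2000 UMI, the median variance to mean ratio of 4201 genes was 1.04, where 1 is the value of pure counting, and 67 genes exceeded 1.5. At means as low as 0.05 UMI per cell the ratio rises little above 1 unless a few cells hold many UMI. The median therefore does not show that most genes vary little. The 5 highest were those of S100a6 (6.85), Malat1 (6.72), Egr1 (6.45), Lgals1 (4.01) and Ctla2a (3.62). S100a6 encodes a calcium-binding protein and Lgals1 galectin 1. Among the 262 thinned members S100a6 had a UMI in only 5, with 8 at most, and Lgals1 in 29. Without thinning, S100a6 was found in 20 of all 268 members, Lgals1 in 62, and both in 10. Effector-memory cells held 716 CPM of S100a6 and 1259.8 of Lgals1, against 84.2 and 127 in members. Ly6c2 (2.36), Cd69 (2.01), Fos (2.41) and Ikzf2 (2.52) also exceeded 2, while Dapl1 (1.51) and Ccr7 (1.27) did not.

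Ly6c2 and Dapl1 were found together in 114 members, Ly6c2 alone in 81, Dapl1 alone in 17 and neither in 56. Ly6c2 and Nkg7 were found together in 163 members, and Dapl1 and Nsg2 in 55. Cd8a was found in 198 members, and 70 had Cd8b1 alone. Trbc2, a constant segment of the T cell receptor beta chain, was found in 267 members, and Trbc1 in 136, all of which also held Trbc2. Both segments are close to identical in sequence, so how reads were divided between them is uncertain.

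Single members carried much of some signals. A single member held 101 of the 279 UMI of 7 interferon-induced genes (36.2%), and the next held 11, while 174 members were at 0. That cell had 9342 UMI and 23 UMI of non-T markers. Of the proliferation genes, Cdk1 and Ccna2 had no UMI in members, Mki67 7 and Birc5 4. The definition left out cells with 4 or more UMI of Mki67 and Top2a together, so low levels of such genes follow in part from the choice of cells. All 4 Birc5 UMI were in 1 member. The replication gene Pcna was found in 103 members at 76.0 CPM, against 106 CPM in effector-memory and 112 in naive CD4 cells.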

How the data were processed

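The data were 10x Genomics counts of liver immune cells. The deposited values are raw UMI counts per gene and barcode, made with Cell Ranger 2.1.1, STAR and mm10 per the submitters' processing notes, which also name Seurat 2.3.4; the header of the matrix names software version 3.0.0. Both samples' files held the same counts (67037274 UMI, 31053 genes), so they were used once. Barcodes needed 500 UMI and 200 genes (56 had fewer genes), and those with over 10% mitochondrial UMI (778) were dropped.

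Gates were set on raw UMI, members summed to CPM, and exact Poisson, conditional binomial or Clopper-Pearson 95% intervals added. Genes were counted at 25 CPM or more in either gate and called apart at 2-fold with 1 CPM added. A gene without UMI was set to a floor of 3 UMI over the gate. Doublets were called with Scrublet (scanpy 1.11.5; 339 barcodes) and kept. Scripts ran in Python 3.11.15 with numpy 2.4.6, scipy 1.17.1 and pandas 2.3.3, and were tested on simulated counts. Of 31053 gene IDs, 30934 matched the GENCODE annotation of GRCm38.

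The members, markers and gene lists (29 lists, 349 genes) were chosen with earlier results of these data known. Named genes are those of the definition, the markers, the 10 highest and 10 lowest ratios per comparison among genes found in at least 25% of the higher gate, the 10 most counted genes of members, and per list the 4 most counted and all members apart. Genes named for variation, Sox4, Rag1, Rag2, Dntt, Ptcra, Cd24a, the exhaustion receptors, Ifngr1, Cxcr3, Themis, St8sia1 in CD4 cells, Pcna, Cdk1, Ccna2 and Birc5 were chosen after their values were seen. There were 17 alternative settings, 4 of them chosen after seeing the data. Values of a few genes of the lists are not reported here.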

Additional observations from a re-analysis of the deposited data

How the results depend on the processing

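No paired analysis was possible because both samples hold the same matrix and no test was made. Of 41 shares and counts of genes under 17 alternative settings, 29 stayed within their margin and 12 moved. The share of naive CD8 T cells was 2.14% with at least 2 Cd8b1 UMI, 2.28% with at least 2 Lef1 UMI and 1.997% with no Ccl5 UMI, since each asks more of a cell. Against effector-memory cells, 1560 genes were apart at a minimum of 10 CPM, 300 at 100 CPM and 566 with the effector-memory gate drawn without the Lef1 condition, where 916 were reported. Against naive CD4 cells, where 278 were reported, 423 were apart with at most 5% mitochondrial UMI, 469 after thinning, 443 with the total that leaves out ribosomal protein, mitochondrial, haemoglobin and hepatocyte genes, 711 at 10 CPM, 58 at 100 CPM and 161 with 10 CPM added. Higher genes made up 19.0% of those apart from effector-memory cells, 44.4% with that reduced total and 36.9% with centred ratios, and 24.8% of those apart from naive CD4 cells, 38.1% with the reduced total, 36.9% after thinning and 65.7% without the CD4 cells that held Foxp3, Ctla4 or Maf. Without those cells the log2 ratios of Ctla4 and Maf turned to 5.77 and 5.36 by construction. The median of the cytotoxic list against naive CD4 cells turned to -0.054 without the Lef1 condition and to -0.61 at 10 CPM, where more genes were counted. Of 1408 values for single genes 1166 kept within their margin and 240 moved, and of 608 list medians 576 and 30. With the reduced total the median of all genes against effector-memory cells was 0.11 in place of -0.26, and the medians of the signalling (0.28 in place of -0.07), quiescence (0.13 in place of -0.22) and helper CD4 lists (0.60 in place of -0.43) changed sign. Depth limits rare genes: 3 UMI over the members is 1.77 CPM.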

Other observations

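Reads from the variable segments of the T cell receptor were sparse in the naive CD8 T cells. Alpha chain V segments (Trav) gave 37 UMI in 28 of 268 members, from 23 of 128 genes, and beta chain V segments (Trbv) gave 43 UMI in 39 members (14.6%, exact binomial 95% interval 10.6 to 19.4%), from 16 of 35 genes. The Trbv segment found in most members was Trbv29, in 7. Among effector-memory cells, whose median depth was 4069 against 6071 UMI, 29 of 365 had a Trbv UMI (7.95%, 5.39 to 11.2%) and 46 a Trav UMI (12.6%, against the 28 of 268 members). Among 3016 B cells 1 had a Trbv UMI. Trgv2, a gamma chain segment, was found in 1 member and in 17 effector-memory cells.

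The 6 members with 20 or more UMI of non-T markers differed from each other in which lineage those came from. The member with the most UMI (30936) held 947 UMI of Kupffer cell and 104 of hepatocyte markers and was not called a doublet. Scrublet called 3 of the other 5, which held 609 UMI of neutrophil markers, 149 of sinusoidal endothelial markers and 28 of Siglech, a gene of plasmacytoid dendritic cells. Single members also held 33 of the 92 Cd44 UMI, 40 of the 53 Rsad2 UMI and 28 of the 68 Maf UMI.

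Apart from ribosomal protein genes, mitochondrial genes and Malat1, the 10 genes with the most UMI in the naive CD8 T cells were Tpt1, Tmsb4x, Eef1a1, Gm42418, Fau, Rack1, Tmsb10, Actb, Eef1b2 and Btg1. This order is one of UMI counted and not of expression per gene length.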
